A study of Mus musculus with 25 samples.

Results

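Glycolysis and the transcriptional response to low oxygen were followed in macrophages of the mouse lung through 34 genes of the 13482 in the count table. The genes were chosen by name and by textbook role, with earlier results of these data known. They were 2 transporters (Slc2a1 and Slc16a3), 13 glycolytic enzymes (Hk1, Hk2, Gpi1, Pfkl, Pfkp, Aldoa, Tpi1, Gapdh, Pgk1, Pgam1, Eno1, Pkm and Ldha), 17 targets of the hypoxia-inducible factors (Pdk1, Pfkfb3, Pfkfb4, Bnip3, Bnip3l, Ndrg1, Ero1l, Egln1, Egln3, P4ha1, P4ha2, Ak4, Mif, Ankrd37, Higd1a, Kdm3a and Ddit4) and 2 subunits of those factors (Hif1a and Arnt). All 34 were in the table and all 34 passed the filter on low counts in every model. In lungs with a tumor, 28 of the 34 were higher in the CD11c- interstitial macrophages of wild type (WT) origin and 26 in the CD11c+ ones than in total macrophages of naive lungs. Of all 13170 genes tested, 13% were higher in the CD11c- and 13.7% in the CD11c+ cells. Both comparisons set sorted tumor subsets against the same 2 naive libraries of total macrophages. Within the tumor-bearing lung the CD11c+ cells had less of several of them than the CD11c- cells, and by edgeR no member passed the test between libraries labelled Il9r KO and WT or between Arg1 CKO and WT libraries, where DESeq2 called 1 member each, Pfkfb3 and Arnt.

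Glycolysis splits glucose into pyruvate and yields ATP without oxygen, and lactate dehydrogenase turns the pyruvate into lactate, which leaves the cell through monocarboxylate transporters. When oxygen falls, the prolyl hydroxylases of the EGLN family stop marking the HIF alpha subunit for destruction, and the alpha subunit then pairs with ARNT and binds a short DNA motif, the hypoxia response element, near its target genes. Targets include nearly the whole glycolytic chain, and macrophages also switch this program on when they meet inflammatory signals, lactate or tumor tissue. HIF alpha is set mostly at the protein level, so its mRNA is a poor measure of its activity.

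The data are bulk sequencing of polyA RNA in 25 libraries of lung macrophages from mixed bone marrow chimeras, mice whose blood cells come from marrow of 2 donors. Marrow of the IL9R chimeras was Il9r KO mixed with WT, and that of the ARG1 chimeras was ARG1 CKO, a conditional knockout of arginase, mixed with WT. Tumor-bearing lungs gave CD11c+ and CD11c- interstitial macrophages (IM): the IL9R chimeras gave 3 Il9r KO and 2 WT libraries of each subset, and the ARG1 chimeras 2 Arg1 CKO and 3 WT libraries of CD11c+ IM with 3 of each genotype of CD11c- IM. Naive lungs gave total macrophages, with 1 knockout and 1 WT library per kind of chimera. Every group, WT ones included, thus comes from a marrow-transplanted host. The tumor is B16, a mouse melanoma line. The growth protocol names it for all 25 libraries, the naive ones too, so which libraries are naive was taken from their titles. The Cre driver of the conditional knockout, the Il9r allele, the host strain, the age and any pooling of mice are not given in the sources used here. Because the naive libraries are total macrophages and the tumor libraries sorted subsets, the tumor and the sorted population cannot be told apart in any comparison between them. In bulk RNA, fewer cells with a transcript and less of it per cell cannot be told apart. Nothing in the labels says that replicates came from separate mice, so p-values measure the spread between these samples.

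Libraries held 32308968 to 56904167 counts and 12113 to 13209 detected genes, and the 34 members took 1.07 to 2.32% of the counts in tumor libraries and 0.543 to 0.726% in naive ones. Itgax, which encodes CD11c, ran from 194 to 552 CPM (read counts scaled to a common library size) in the CD11c+ libraries and from 11.4 to 49.0 CPM in the CD11c- libraries, with no overlap, and from 388 to 554 CPM in the naive ones. The summed level of 12 macrophage markers was 16400 to 47500 CPM in tumor CD11c+ libraries, 26600 to 35600 CPM in tumor CD11c- libraries and 22300 to 30000 CPM in naive libraries. Il9r itself went against the labels: it had 83 to 562 reads in the 7 libraries labelled Il9r KO, 0 to 61 in the 6 labelled Arg1 CKO and 0 in all 12 WT libraries. These libraries are therefore called labelled Il9r KO, and any direction drawn from them rests on the label. Arg1, the gene behind arginase, had 483 and 567 CPM in Arg1 CKO against 2910, 1100 and 1260 CPM in WT CD11c+ libraries, and 2790, 2310 and 1710 CPM in Arg1 CKO against 6230, 4590 and 3620 CPM in WT CD11c- libraries. CD11c+ library 3 labelled Il9r KO stood apart: its melanoma markers summed to 1135 CPM against 79.9 and 115 CPM in the WT CD11c+ libraries of the same chimeras, and its alveolar macrophage markers to 11960 CPM. CD11c- library 3 labelled Il9r KO had 441 CPM of melanoma markers, and both are left out in turn where it matters.

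Levels of different genes can be compared only per length, so CPM were divided by the exon length in kilobases. In the 21 tumor libraries the median level was 862 CPM per kb for Gapdh, 793 for Aldoa, 726 for Ldha, 572 for Mif, 528 for Pkm and 406 for Tpi1. These 6 genes stood above all the other members, whose medians did not pass 133 CPM per kb, the value of Pgk1. At the other end were P4ha2 at 1.35, Ak4 at 1.93, Eno1 at 2.50 and Ddit4 at 2.72 CPM per kb. Hk3, a hexokinase outside the 34 genes, was the most abundant hexokinase here at 58.3 CPM per kb, against 11.7 for Hk2 and 9.52 for Hk1. The ranges of Hk3 (42.3 to 94.4) and of the member hexokinases (Hk2 6.55 to 16.0, Hk1 5.81 to 21.5) did not overlap. Eno1 was low and its near-identical copy Eno1b was at 7.73 CPM per kb. The counting may have split reads between them, and many glycolytic genes have processed copies in the mouse genome, so absolute levels of this family are uncertain.

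The phosphofructokinases changed order between tumor-bearing and naive lungs. Pfkl, the liver-type enzyme of the committing step of glycolysis, had a median of 33.6 CPM per kb in tumor libraries (range 23.4 to 74.3) against 13.9 in naive libraries (10.9 to 15.5). Pfkp, the platelet-type enzyme of the same step, had a median of 13.8 CPM per kb in tumor libraries (8.84 to 22.8) against 27.7 in naive libraries (20.5 to 29.98). Pfkl was thus above Pfkp in each of the 21 tumor libraries, where their ranges did not meet, and below it in each of the 4 naive ones. Pfkm, the muscle type, was at 0.858 CPM per kb in tumor and 1.43 in naive libraries.

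A score, the mean log2 CPM of a set per library, was taken for the enzymes apart from the HIF targets, and it carries no test. The enzyme score averaged 8.69 ± 0.28 in tumor CD11c+ WT libraries (SD, n = 5), 8.98 ± 0.24 in tumor CD11c- WT libraries (n = 5) and 7.21 in naive WT libraries (7.05 and 7.37). Averaged over the kinds of chimera, the enzymes were thus 1.45 log2 units higher in CD11c+ IM and 1.73 higher in CD11c- IM than in naive macrophages. The HIF target score averaged 5.65 ± 0.22 in tumor CD11c+ WT libraries, 6.26 ± 0.29 in tumor CD11c- WT libraries and 3.81 in naive WT libraries (3.71 and 3.92). The differences from naive were 1.81 for CD11c+ IM and 2.42 for CD11c- IM. They depend on taking the mean: with the median over members in its place they were 0.95 and 1.55 for HIF targets, and 0.77 and 1.28 for enzymes, in CD11c+ and CD11c- IM. In libraries labelled knockout, the enzyme score averaged 8.45 ± 0.19 in CD11c+ IM (n = 5), 8.78 ± 0.36 in CD11c- IM (n = 6) and 7.48 in the naive libraries, and the HIF target score 5.35 ± 0.27, 5.93 ± 0.45 and 4.14 in the same groups. On both scores all 21 tumor libraries lay above all 4 naive ones.

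**Figure D1:**
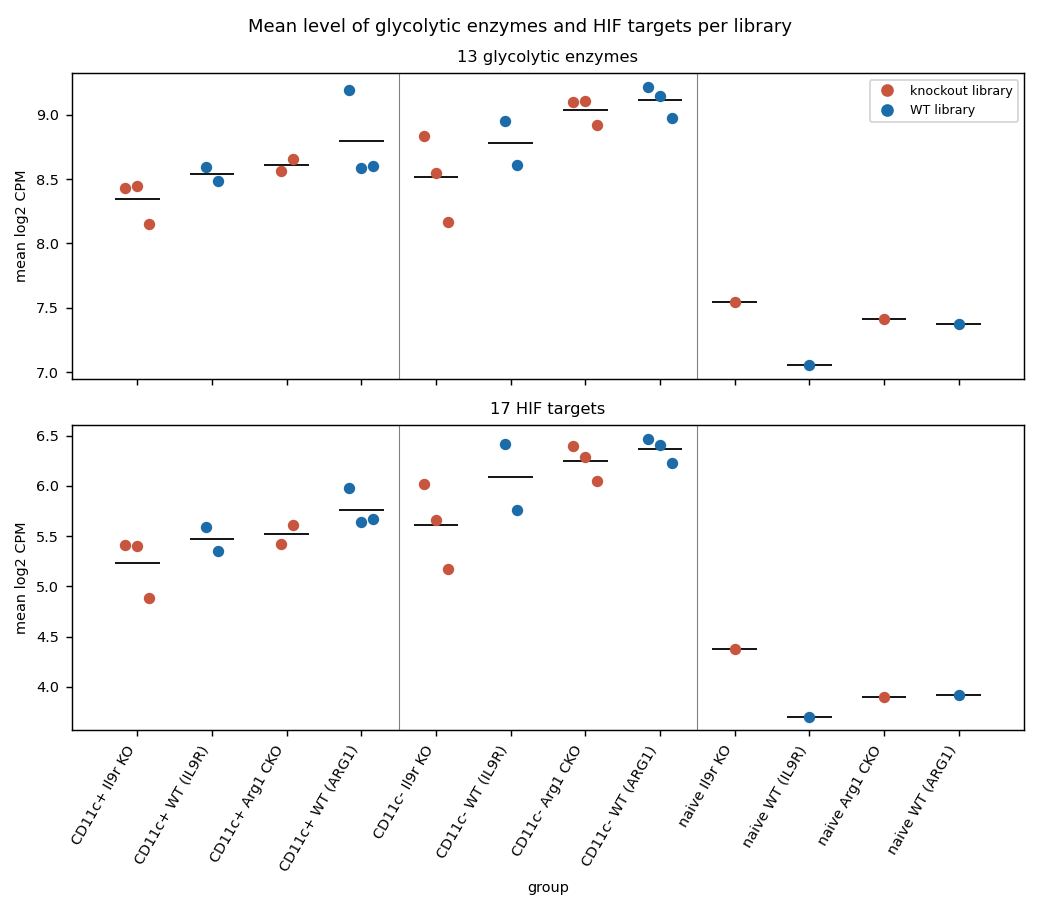
Mean log2 CPM of the 13 glycolytic enzymes (upper panel) and the 17 HIF targets (lower panel) in each of the 25 libraries, with 1 point per library, red for knockout and blue for WT labels, and a line at each group's mean. All 21 tumor libraries lie above all 4 naive libraries on both scores, and the CD11c+ WT groups average 8.69 and 5.65 against 8.98 and 6.26 in the CD11c- WT groups.

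The sharpest rises were among HIF targets that were nearly silent in naive macrophages. The promoters of 6 HIF targets are shown: Ak4, Egln3, P4ha2, Ankrd37, Bnip3 and Mif. Among called members they had the largest absolute log2 changes in the subset and tumor comparisons. The windows are 300 bases around the RefSeq start site on GRCm38.p6, written 5′ to 3′ on the gene's strand: Ak4 on chr4:101419039-101419338 (+), Egln3 on chr12:54203825-54204124 (-), P4ha2 on chr11:54100674-54100973 (+), Ankrd37 on chr8:45999801-46000100 (-), Bnip3 on chr7:138909457-138909756 (-) and Mif on chr10:75860228-75860527 (-). Ak4 has 4 start sites in the table and the first is shown. Capitals mark the core of the hypoxia response element, ACGTG or GCGTG, read on either strand, so that CACGT and CACGC are the same letters on the other strand.
Ak4: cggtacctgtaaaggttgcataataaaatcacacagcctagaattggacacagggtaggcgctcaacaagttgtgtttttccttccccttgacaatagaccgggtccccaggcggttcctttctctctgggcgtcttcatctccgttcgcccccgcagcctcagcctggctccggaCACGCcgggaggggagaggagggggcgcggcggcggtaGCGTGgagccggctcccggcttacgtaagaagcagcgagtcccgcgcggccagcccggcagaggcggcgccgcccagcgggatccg
Egln3: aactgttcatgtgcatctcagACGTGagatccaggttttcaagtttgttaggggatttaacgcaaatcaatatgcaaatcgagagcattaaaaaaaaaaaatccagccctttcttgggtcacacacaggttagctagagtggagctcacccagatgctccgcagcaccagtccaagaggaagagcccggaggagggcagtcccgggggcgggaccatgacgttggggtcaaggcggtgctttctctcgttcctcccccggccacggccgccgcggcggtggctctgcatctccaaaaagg
P4ha2: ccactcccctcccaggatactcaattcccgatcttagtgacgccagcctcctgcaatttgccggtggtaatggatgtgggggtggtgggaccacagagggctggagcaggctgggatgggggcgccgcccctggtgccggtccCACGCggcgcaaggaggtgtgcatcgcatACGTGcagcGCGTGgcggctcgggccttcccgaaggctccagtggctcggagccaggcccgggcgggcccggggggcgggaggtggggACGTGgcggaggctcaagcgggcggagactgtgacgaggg
Ankrd37: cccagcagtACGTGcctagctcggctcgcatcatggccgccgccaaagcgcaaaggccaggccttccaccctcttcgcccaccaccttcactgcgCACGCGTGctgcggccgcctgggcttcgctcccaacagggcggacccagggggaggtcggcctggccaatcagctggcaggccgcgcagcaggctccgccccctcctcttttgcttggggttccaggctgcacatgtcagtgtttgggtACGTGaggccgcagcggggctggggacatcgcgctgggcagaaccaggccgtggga
Bnip3: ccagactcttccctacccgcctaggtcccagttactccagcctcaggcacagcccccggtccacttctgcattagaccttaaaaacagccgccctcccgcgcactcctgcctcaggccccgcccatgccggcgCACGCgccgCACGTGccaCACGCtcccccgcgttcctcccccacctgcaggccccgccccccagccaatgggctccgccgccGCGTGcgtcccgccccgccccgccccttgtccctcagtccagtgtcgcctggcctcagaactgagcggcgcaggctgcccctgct
Mif: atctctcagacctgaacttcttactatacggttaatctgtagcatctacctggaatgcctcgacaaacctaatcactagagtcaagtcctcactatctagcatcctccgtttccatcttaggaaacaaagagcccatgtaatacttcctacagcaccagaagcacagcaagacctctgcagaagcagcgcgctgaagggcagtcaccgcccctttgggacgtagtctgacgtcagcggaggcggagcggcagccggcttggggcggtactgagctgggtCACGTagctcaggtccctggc
The Bnip3 window held 5 matches, P4ha2 and Ankrd37 4 each, Ak4 2, and Egln3 and Mif 1 each, where a match on each strand may share bases (CACGTG counts on both).

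Of the 34 genes, 32 had a promoter in the RefSeq table, and Bnip3l and Ndrg1 were not among them. At least 1 match to ACGTG or GCGTG was present for 30 of the 32 (93.8%), against 65.9% of the 10274 genes of the count table with a promoter entry and 46.7% of all 27025 genes with one. At least 2 matches were present for 23 of the 32 (71.9%), against 37.1% and 22.9%. By role, all 15 HIF targets with an entry, both transporters, both HIF subunits and 11 of the 13 enzymes had a match, and Gpi1 and Tpi1 had none in this window. The genes were chosen as known HIF targets, so the share describes the list, and a match in a window is no evidence of binding.

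Genes of the glycolytic chain rose together in tumor-associated macrophages of WT origin. CD11c+ IM against naive macrophages had 26 members higher and 3 lower, where 13.7% of all 13170 genes tested were higher and 9.54% lower (edgeR quasi-likelihood test, Benjamini-Hochberg adjusted p under 0.05 over all genes). CD11c- IM against naive macrophages had 28 members higher and 2 lower, where 13% of all genes were higher and 10.2% lower. The median log2 change was 1.63 in CD11c+ IM and 2.12 in CD11c- IM, beside medians of -0.03 and -0.03 over all genes. In 26 of the 34 members all 5 tumor CD11c+ libraries lay above both naive WT libraries and in 3 all lay below, and in CD11c- IM the counts were 27 and 2. Over all 13482 genes, 18.9% lay wholly above and 20.2% wholly below in CD11c+ IM, and 17% and 22.2% in CD11c- IM. Both comparisons use the same 2 naive libraries.

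Both transporters were higher. Slc2a1, the main glucose importer GLUT1, had 267, 208, 433, 236 and 258 CPM in CD11c+ IM and 453, 278, 615, 481 and 422 CPM in CD11c- IM, against 66.4 and 73.7 CPM in naive macrophages. Every tumor library was above every naive one, by 3.94-fold in CD11c+ IM (edgeR adjusted p = 0.000433) and 6.29-fold in CD11c- IM (adjusted p = 2.54e-05). Slc16a3, the lactate exporter MCT4, was 3.20-fold higher in CD11c+ IM and 6.07-fold in CD11c- IM (adjusted p = 0.00463 and 0.000245 by edgeR).

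Among the enzymes, 11 were higher and 1 lower in CD11c+ IM, and 12 were higher and 1 lower in CD11c- IM. Tpi1, triose phosphate isomerase, had 992, 940, 2108, 1192 and 1106 CPM in CD11c+ IM and 1118, 1063, 2051, 1784 and 1609 CPM in CD11c- IM, against 145 and 206 CPM in naive macrophages. The tumor groups were wholly above the naive one, with log2 changes of 2.81 ± 0.26 in CD11c+ IM and 3.06 ± 0.27 in CD11c- IM (SE, edgeR adjusted p = 2.52e-05 and 4.76e-06). Gapdh, glyceraldehyde phosphate dehydrogenase, rose by 2.64 ± 0.26 in CD11c+ and 2.59 ± 0.26 in CD11c- IM, and Pgk1, phosphoglycerate kinase, by 2.49 ± 0.20 in CD11c+ and 2.91 ± 0.21 in CD11c- IM. Ldha, which makes lactate, was 5.58-fold higher in CD11c+ IM and 6.61-fold in CD11c- IM. The hexokinases changed by smaller factors: Hk2 was 1.68-fold higher in CD11c+ and 1.94-fold in CD11c- IM, and Hk1 was 1.78-fold higher in CD11c- IM (adjusted p = 0.0433), with a log2 difference of -0.11 ± 0.27 that did not pass in CD11c+ IM. Pfkp was the enzyme that fell, with 206, 198, 180, 149 and 169 CPM in CD11c+ IM and 306, 142, 187, 207 and 141 CPM in CD11c- IM, against 351 and 392 CPM in naive macrophages. Its log2 change was -1.01 ± 0.23 in CD11c+ IM and -0.89 ± 0.23 in CD11c- IM (edgeR adjusted p = 0.00625 and 0.0121), and no tumor library reached a naive one.

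Of the 17 HIF targets, 13 were higher and 2 lower in CD11c+ IM, and 14 were higher and 1 lower in CD11c- IM. Egln3, a HIF prolyl hydroxylase that is itself induced by HIF, had 33.5, 16.0, 61.1, 35.5 and 25.3 CPM in CD11c+ IM and 73.0, 27.6, 101, 85.1 and 82.3 CPM in CD11c- IM, against 0.786 and 1.10 CPM in naive macrophages. Both tumor groups were far above the naive one, with log2 changes of 5.12 ± 0.52 in CD11c+ IM and 6.21 ± 0.55 in CD11c- IM (edgeR adjusted p = 3.9e-05 and 4.76e-06). Ak4, an adenylate kinase of mitochondria, had 6.32, 3.30, 9.44, 8.97 and 9.16 CPM in CD11c+ IM and 14.3, 4.25, 18.6, 18.5 and 16.2 CPM in CD11c- IM, against 0 and 0.353 CPM in naive macrophages, which are 0 and 16 reads. Its log2 change of 5.52 ± 0.76 in CD11c+ IM and 6.46 ± 0.79 in CD11c- IM rests on those few naive reads. Without the naive WT library of the IL9R chimeras it was 4.71 in CD11c+ and 5.66 in CD11c- IM, and without that of the ARG1 chimeras, which leaves a naive group with no read, the fitted values of 10.63 and 11.57 are no estimate of size.

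Other HIF targets followed with smaller factors. P4ha2, a subunit of collagen prolyl hydroxylase, rose by 3.26 ± 0.54 in CD11c+ IM and 4.15 ± 0.57 in CD11c- IM on the log2 scale, and Ankrd37, an ankyrin repeat protein, by 3.18 ± 0.42 in CD11c+ and 4.13 ± 0.44 in CD11c- IM. Bnip3, a receptor that marks mitochondria for autophagy, had 118, 136, 191, 166 and 144 CPM in CD11c+ IM and 351, 242, 417, 389 and 269 CPM in CD11c- IM, against 26.1 and 31.3 CPM in naive macrophages. The 3 groups did not overlap, and Bnip3 was 5.23-fold higher in CD11c+ IM and 11.6-fold in CD11c- IM (edgeR adjusted p = 3.25e-05 and 1.11e-06). Mif, a cytokine, had 360, 291, 736, 449 and 443 CPM in CD11c+ IM and 226, 263, 583, 438 and 562 CPM in CD11c- IM, against 36.3 and 63.0 CPM in naive macrophages, which made it 8.90-fold higher in CD11c+ and 7.81-fold in CD11c- IM. Ndrg1, a stress response gene, was 5.45-fold higher in CD11c+ and 8.71-fold in CD11c- IM. Bnip3l, the close relative of Bnip3 in the same role, did not pass in either comparison, with log2 differences of 0.37 ± 0.24 in CD11c+ IM and 0.08 ± 0.23 in CD11c- IM.

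The 2 phosphofructokinase-fructose bisphosphatases, which set the level of the activator of phosphofructokinase, differed in their changes. Pfkfb4 fell, with 50.9, 62.2, 72.7, 56.8 and 50.1 CPM in CD11c+ IM and 110, 59.5, 63.9, 67.0 and 49.1 CPM in CD11c- IM, against 127 and 152 CPM in naive macrophages (log2 change -1.21 ± 0.24 in CD11c+ IM and -0.97 ± 0.24 in CD11c- IM, edgeR adjusted p = 0.00279 and 0.00961). Pfkfb3 was 1.69-fold higher in CD11c- IM (adjusted p = 0.00774) and had a log2 difference of -0.02 ± 0.18 in CD11c+ IM. Kdm3a, a histone demethylase, fell by 1.14 ± 0.27 on the log2 scale in CD11c+ IM (edgeR adjusted p = 0.00731), and its difference of -0.57 ± 0.27 in CD11c- IM did not pass. The HIF subunits did not pass in either group: Hif1a had log2 differences of -0.40 ± 0.25 in CD11c+ IM and 0.58 ± 0.26 in CD11c- IM, and Arnt of -0.33 ± 0.21 in CD11c+ and 0.23 ± 0.21 in CD11c- IM.

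**Figure D2:**
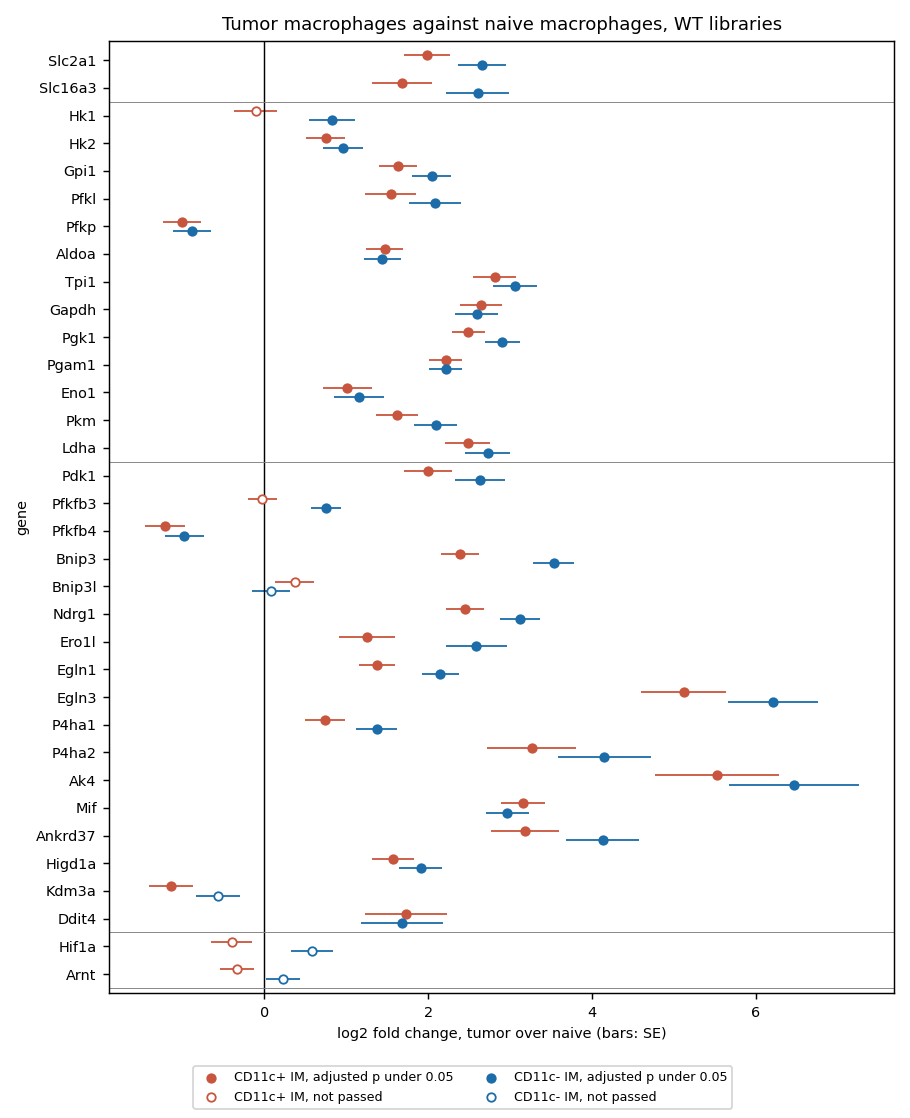
Log2 fold change of each of the 34 genes in tumor CD11c+ IM (red) and tumor CD11c- IM (blue) over naive total macrophages, WT libraries, with bars for the SE and filled points for an adjusted p under 0.05. Egln3 and Ak4 lie farthest to the right, between 5.12 and 6.46, while Pfkp and Pfkfb4 lie left of 0 in both groups.

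Markers of other cell types moved between the same groups, and their part in these results was not tested. The 16 alveolar macrophage markers summed to 603 to 7290 CPM in tumor CD11c+ WT libraries and 343 to 580 CPM in tumor CD11c- WT libraries, where Krt79 was at 0, against 708 to 1280 CPM in naive WT libraries. The 10 monocyte markers summed to 2490 to 8350 CPM in tumor CD11c+ WT libraries and 5120 to 7140 CPM in tumor CD11c- WT libraries, against 3460 to 3790 CPM in naive WT libraries. Chil3 is in both the monocyte and the alveolar macrophage list, so their sums are not separate signals. The 13 melanoma markers in the table summed to 67.9 to 115 CPM in CD11c+ WT libraries, with Oca2 and Gpr143 at 0, and 107 to 182 CPM in CD11c- WT libraries, against 32.3 to 52.4 CPM in naive WT libraries, with Sox10, Slc45a2, Oca2 and Gpr143 at 0. The 10 dendritic cell markers summed to 152 to 317 CPM in CD11c+ WT libraries and 12.8 to 44.6 CPM in CD11c- WT libraries, against 154 to 271 CPM in naive WT libraries. The 13 markers of T and NK cells summed to 22.8 to 82.1 CPM in CD11c+ WT libraries, with Cd3e, Cd8b1, Ncr1 and Nkg7 at 0, and 4.32 to 10.9 CPM in CD11c- WT libraries, against 107 to 219 CPM in naive WT libraries. Immediate early genes, which cell dissociation can induce, summed to 12700 to 20700 CPM in tumor CD11c+ WT libraries and 16400 to 23800 CPM in tumor CD11c- WT libraries, against 22500 to 26600 CPM in naive WT libraries.

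The same comparison was made in the libraries labelled knockout. It is not independent of the WT one, since knockout and WT cells came from mixed chimeras. Same-numbered tumor libraries also had deviations with a positive r (0.213 to 0.464, apart from CD11c+ IM of the ARG1 chimeras). That is weak ground for pairs where a subset had 2 WT libraries. CD11c- IM had 25 members higher and 2 lower than naive macrophages, where 11.3% of 13356 genes were higher and 11.7% lower, with a median log2 change of 1.56. CD11c+ IM had 14 members higher and 0 lower, where 3.02% of genes were higher and 2.7% lower, with a median of 0.96. Ak4 rose by 4.20 ± 0.61 in CD11c+ IM and 5.12 ± 0.63 in CD11c- IM, P4ha2 by 3.13 ± 0.54 in CD11c+ and 3.35 ± 0.54 in CD11c- IM, and Ldha by 1.57 ± 0.22 in CD11c+ and 2.11 ± 0.22 in CD11c- IM (SE, edgeR adjusted p from 7.89e-05 to 0.0092). Egln3 rose by 3.80 ± 1.06 in CD11c- IM (adjusted p = 0.0226) and did not pass in CD11c+ IM, where its value was 2.03 ± 0.96. Pfkp fell by 1.03 and Pfkfb4 by 1.68 in CD11c- IM. These counts rested on which naive library was in the fit. They fell in both subsets without the naive Arg1 CKO library, and the CD11c+ count rose without the naive library labelled Il9r KO. The CD11c+ count was 21 without CD11c+ library 3 labelled Il9r KO and 24 without both tumor libraries numbered 3. Counts over all genes in these fits are not given here, so the moves are not read as a result about these members. Without the naive Arg1 CKO library Egln3 in CD11c- IM was 2.62 (edgeR adjusted p = 0.186) and without the naive library labelled Il9r KO it was 7.08 (adjusted p = 0.00291). In the first of these fits Ankrd37 and Mif also lost their calls. The alveolar macrophage markers summed to 1710 to 12000 CPM in tumor CD11c+ and 337 to 583 CPM in tumor CD11c- knockout libraries, against 2510 to 5860 CPM in naive knockout libraries. The melanoma markers summed to 93.6 to 1140 CPM in tumor CD11c+ and 116 to 441 CPM in tumor CD11c- knockout libraries, against 35.8 to 56.0 CPM in naive knockout libraries. As Chil3 is in both lists, the sums of monocyte and alveolar macrophage markers are not separate signals here either. The monocyte markers summed to 3580 to 11500 CPM in tumor CD11c+ and 4000 to 6010 CPM in tumor CD11c- knockout libraries, against 4710 to 8580 CPM in naive knockout libraries. The naive Arg1 CKO library, at the upper end of that range, stood apart from the other naive ones: its markers of epithelium, endothelium and stroma summed to 445 CPM, against 19.5 to 56.8 CPM in the other 3. The part of these markers in the result was not tested.

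The tumor effects of knockout and WT libraries were then set against each other in 1 fit of all 25 libraries, a test added after the data had been seen. No member differed and 0% of all 13482 genes did, and an unadjusted p under 0.05 was reached by 8 members beside 463 genes for CD11c+ IM and by 1 member beside 152 genes for CD11c- IM. The rise in knockout libraries minus that in WT libraries was negative in 26 of the 34 in CD11c+ IM and in all 34 in CD11c- IM. The median was -0.51 in CD11c+ and -0.54 in CD11c- IM, against -0.024 and -0.027 over all genes. The share of all genes with a negative difference is not given here. All these differences rest on the same naive libraries, 1 a group, so they are not separate signals. The naive library labelled Il9r KO was itself above its WT partner in 24 of the 34 members and below it in 10. It had 6.71 CPM of Egln3 against 0.786 CPM in WT, 112 against 36.3 CPM of Mif, 1296 against 506 CPM of Gapdh, 329 against 145 CPM of Tpi1 and 84.8 against 42.1 CPM of Pgk1. Among the 10 lower members were Kdm3a, at 35.0 against 65.4 CPM, Hif1a, at 135 against 241 CPM, and Hk1, at 47.2 against 84.6 CPM. With 1 library a group there is no test. The members' median log2 ratio was 0.52, against 0.046 over 11081 genes, of which 52.7% were higher. More than 2-fold higher were 8 members, where 8.16% of the 11081 genes were. The same library had 285 CPM of Arg1 against 15.8 CPM in its WT partner. The naive Arg1 CKO library, against its WT partner, had 22 of 34 members higher with a median of 0.06. Over all genes 45.5% were higher, with a median of -0.043. More than 2-fold higher were 0 members, where 2.62% of genes were.

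**Figure D3:**
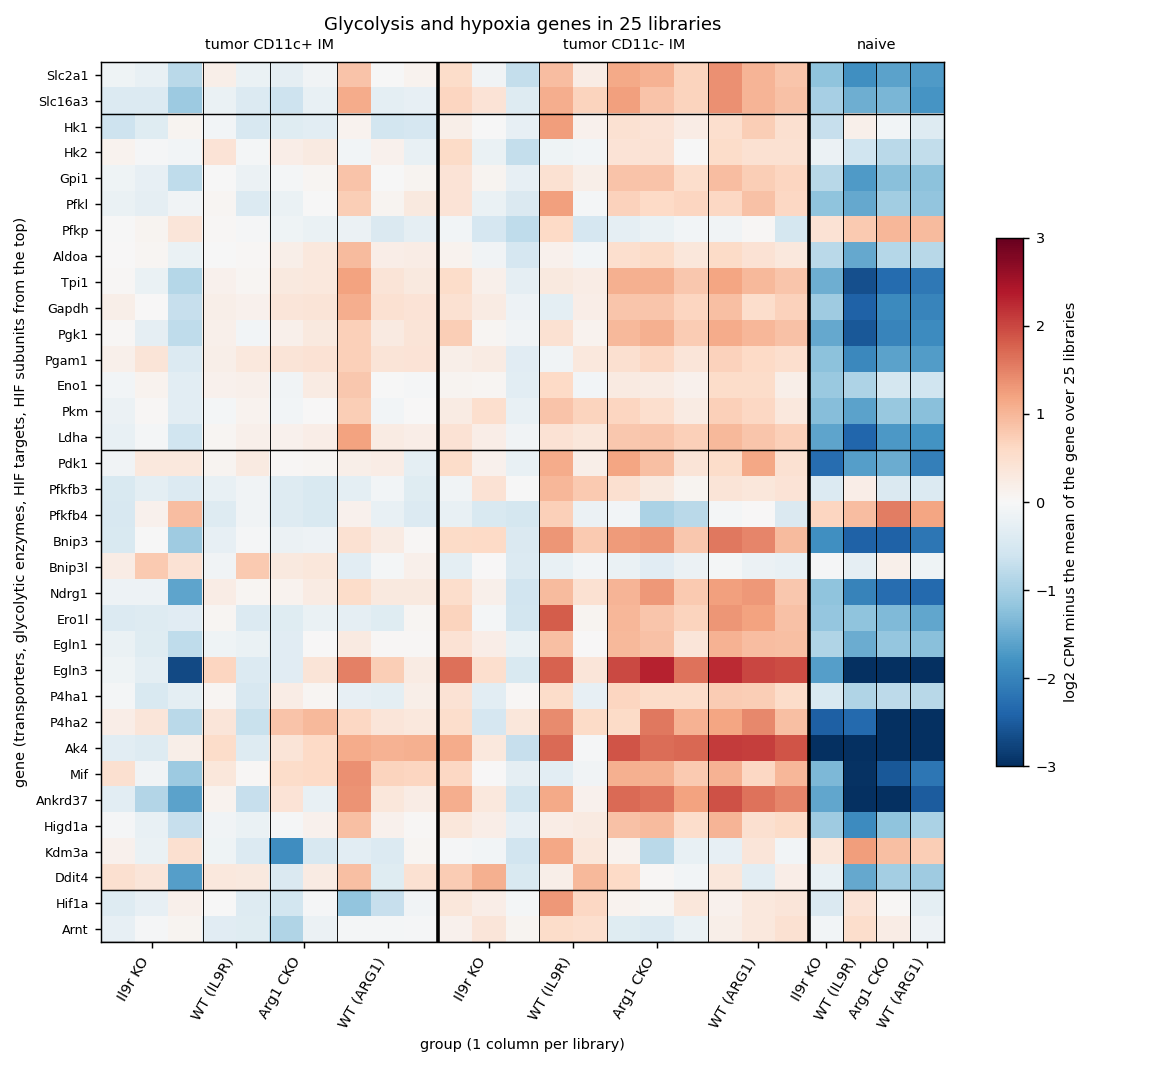
Log2 CPM of the 34 genes (rows, by role) minus each gene's mean over the 25 libraries (columns, by group), from blue (below the mean) to red (above), with the scale ending at -3 and 3. The naive columns are blue for most transporters, enzymes and HIF targets, and red for Pfkp, Pfkfb4 and Kdm3a.

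Within the tumor-bearing lung, some HIF targets and, in WT libraries, both HIF subunits were lower in CD11c+ IM than in CD11c- IM. In WT libraries 10 members were lower and 0 higher, where 6.1% of 13434 genes were lower and 5.44% higher (edgeR, as above), and 29 of the 34 differences were negative with a median of -0.61 against 0.00 over all genes. The 10 were 6 of the 17 HIF targets (Pfkfb3, Bnip3, Ero1l, Egln1, P4ha1 and P4ha2), both subunits, the exporter Slc16a3 and 1 of the 13 enzymes, Hk1. DESeq2 called 17 members lower beside 2174 genes called of all. A block for the label number called 20 beside 1967 genes, 5 of them enzymes (Hk1, Gpi1, Pfkl, Pgk1 and Pkm), though these numbers were not shown to pair libraries across subsets. The HIF target score was 5.47 in CD11c+ WT against 6.09 in CD11c- WT libraries of the IL9R chimeras and 5.76 against 6.37 in those of the ARG1 chimeras. The enzyme score differed less, 8.54 against 8.78 and 8.79 against 9.11 in the same order.

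Pfkfb3, the phosphofructokinase activator enzyme of inflammatory cells, had 62.7, 67.7, 59.7, 68.8 and 56.6 CPM in CD11c+ WT libraries, against 145, 126, 95.1, 91.6 and 95.9 CPM in CD11c- WT libraries. The groups did not overlap and the log2 change was -0.84 ± 0.12 (edgeR adjusted p = 0.00018). Hif1a had 180, 139, 80.2, 112 and 169 CPM in CD11c+ libraries, against 446, 277, 199, 225 and 232 CPM in CD11c- libraries, again without overlap (-1.03 ± 0.19, edgeR adjusted p = 0.00133). Arnt, its partner, had 34.4, 33.99, 42.3, 42.1 and 43.1 CPM against 64.4, 62.0, 49.3, 54.5 and 59.97 CPM (-0.63 ± 0.13, edgeR adjusted p = 0.00406). Both parts of the factor were thus lower at the RNA level in every CD11c+ WT library than in any CD11c- one. Ero1l, which forms disulfide bonds in the endoplasmic reticulum, fell by 1.36 ± 0.26, Bnip3 by 1.17 ± 0.22 and Egln1, the main HIF prolyl hydroxylase, by 0.77 ± 0.18 (edgeR adjusted p = 0.0016, 0.0015 and 0.00705). Hk1 fell by 0.97 ± 0.20 and Slc16a3 by 0.99 ± 0.26 (edgeR adjusted p = 0.00287 and 0.0168). Several abundant members did not follow: Gapdh had a log2 difference of 0.07, Aldoa of 0.01, Pgam1 of 0.01 and Mif, a HIF target, of 0.22, none past the test.

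The knockout libraries had 14 members lower and 1 higher in CD11c+ IM, where 6.36% of genes were lower and 5.91% higher, and 31 differences were negative (median -0.45). Egln3 had 19.4, 17.4, 3.23, 16.8 and 27.8 CPM in CD11c+ knockout libraries, against 15.6 to 106 CPM with a median of 66.1 in the 6 CD11c- ones. The groups overlapped only through the CD11c- library 3 labelled Il9r KO, the lowest of its group, and the log2 change was -1.71 ± 0.44 (edgeR adjusted p = 0.0141). Bnip3 fell by 1.04 ± 0.21, Slc16a3 by 1.12 ± 0.25, Ankrd37 by 1.35 ± 0.32 and Egln1 by 0.75 ± 0.17 (edgeR adjusted p from 0.00219 to 0.00715). Here 4 of the 13 enzymes also fell, Gpi1, Tpi1, Pgk1 and Ldha, by 0.54 to 0.65. Bnip3l was the member that rose, with 181, 265, 210, 188 and 195 CPM in CD11c+ knockout libraries, against 116 to 156 CPM in the 6 CD11c- ones, a log2 change of 0.63 ± 0.15 without overlap (edgeR adjusted p = 0.00623). The test of the difference between the knockout and WT contrasts called 0 members and 0% of all genes, with 3 members and 906 genes at an unadjusted p under 0.05. The 3 were Hif1a (knockout minus WT 0.66 ± 0.26), Arnt (0.41 ± 0.18) and Pfkfb4 (0.73 ± 0.32), with edgeR adjusted p from 0.705 to 0.722. Hif1a and Arnt did not pass in the knockout libraries, with log2 differences of -0.37 ± 0.18 and -0.22 ± 0.13 (edgeR adjusted p = 0.202 and 0.303).

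These counts moved when single libraries were left out. Counts over all genes in those fits are not given here, so the moves are not read as a result about these members. In the IL9R chimeras, dropping CD11c- WT library 1 gave a WT count of 6 and dropping CD11c- WT library 2 gave 16, and in the ARG1 chimeras dropping CD11c+ WT library 1 gave 16. P4ha2 lost its call under most such fits (adjusted p up to 0.219). In the IL9R chimeras, Slc16a3 lost its call when CD11c- WT library 1 was dropped or when CD11c+ WT library 2 was (0.0758 and 0.086), and Egln1 when that CD11c- library was (0.079). The knockout count was 8 without CD11c- library 1 labelled Il9r KO, 8 without CD11c- Arg1 CKO library 1, 8 without CD11c- Arg1 CKO library 2, 5 without CD11c+ Arg1 CKO library 1 and 8 without CD11c+ Arg1 CKO library 2. Egln3 and Egln1 lost their calls without CD11c+ Arg1 CKO library 1 (0.106 and 0.0505), Ankrd37 without CD11c+ Arg1 CKO library 2 (0.0571), and Ndrg1, Ero1l and Slc2a1 under most (adjusted p up to 0.158). CD11c+ WT library 1 of the ARG1 chimeras had an enzyme score of 9.19, against 8.49 to 8.61 in the other CD11c+ WT libraries. The subsets also differed in markers: of 16 alveolar macrophage markers, 8 were higher in CD11c+ WT and 10 in CD11c+ knockout libraries, and of 10 monocyte markers (Chil3 being in both lists) 7 were lower in both. Their part in the result was not tested.

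**Figure D4:**
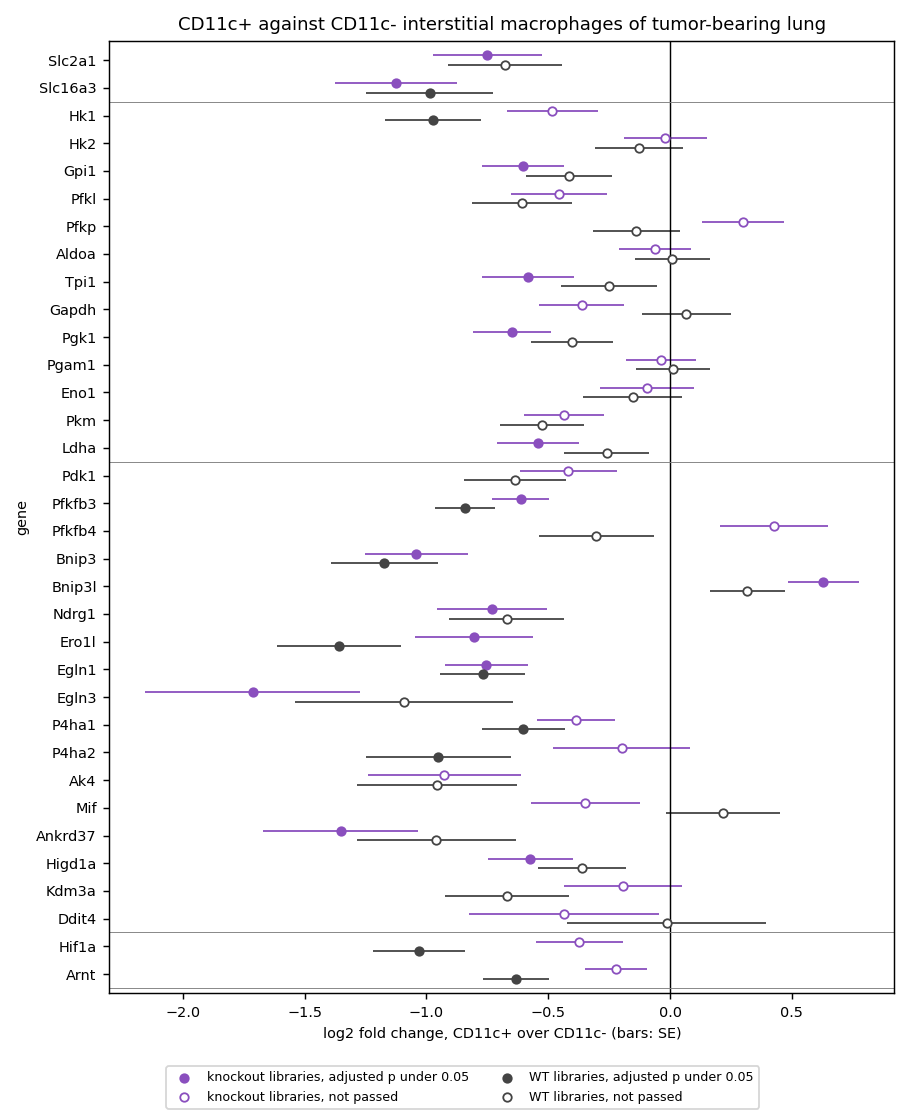
Log2 fold change of the 34 genes in CD11c+ over CD11c- IM of tumor-bearing lung, for knockout libraries (purple, upper of each pair) and WT libraries (black, lower), with bars for the SE and filled points for an adjusted p under 0.05. Most points lie left of 0, from -1.71 for Egln3, and Bnip3l in knockout libraries is the filled point to the right.

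Whether these genes differed between libraries labelled Il9r KO or Arg1 CKO and WT ones was asked within each kind of chimera. Between libraries labelled Il9r KO and WT, no member was called over both subsets, where 0.0521% of all genes were, in CD11c+ IM (0.0298%) or in CD11c- IM (0.0223%) by edgeR. Before adjustment, p was under 0.05 for 7 members and 562 genes over both subsets, for 0 members and 380 genes of CD11c+ IM and for 11 members and 836 genes of CD11c- IM. DESeq2 called 1 member, Pfkfb3, over both subsets (log2 change -0.49, adjusted p = 0.0198) and in CD11c- IM (-0.75, adjusted p = 0.0117), beside 53 and 29 genes called of all, while it called 0 members in CD11c+ IM and limma voom called 0 in all 3. The members' median log2 difference was -0.29 over both subsets, with 32 of 34 negative, -0.21 in CD11c+ IM with 26 negative and -0.39 in CD11c- IM with 31 negative. Over all genes the median was 0.02 with 46.6% negative over both subsets, 0.01 with 48.2% in CD11c+ IM and 0.01 with 48.5% in CD11c- IM. With a block for the pair the members' medians were -0.16 over both subsets, -0.09 in CD11c+ IM and -0.16 in CD11c- IM. The score differences carry no test and are given beside the within-group SD of single libraries, which is not the error of a difference of means. Over both subsets they were -0.358 for HIF targets beside an SD of 0.363, and -0.23 for enzymes beside 0.24. In CD11c+ IM they were -0.239 beside 0.268 for HIF targets and -0.197 beside 0.145 for enzymes, and in CD11c- IM -0.477 beside 0.437 and -0.263 beside 0.307. Without the tumor libraries numbered 3 the median over both subsets was -0.19, with 26 negative. The effect did not differ between subsets for any member (0 of 34 and 0% of all genes by edgeR, 0 of 34 by DESeq2 and limma voom, with 7 members and 740 genes at an unadjusted p under 0.05).

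The members with the smallest p give the size of what was seen. Pfkfb3 had 53.2, 59.6 and 55.0 CPM in CD11c+ libraries labelled Il9r KO against 62.7 and 67.7 CPM in WT, and 67.9, 98.5 and 71.8 CPM in CD11c- libraries labelled Il9r KO against 145 and 126 CPM in WT. It was lower in each of the 6 labelled libraries than in the WT ones of its subset, with a log2 difference of -0.49 ± 0.12 (edgeR adjusted p = 0.398). Pfkfb3 was picked by its p in these same libraries, and the share of all genes without overlap is not given here. The order of the libraries thus adds no support. Ero1l had 196, 119 and 84.8 CPM in CD11c- libraries labelled Il9r KO against 439 and 131 CPM in WT, a difference of -1.10 ± 0.35 that was 0.02 without WT library 1 and -1.72 without WT library 2 (adjusted p = 0.0197). Without that WT library 2, 3 members were called in CD11c- IM, beside 51 genes of all. Hif1a and Hk1 differed by -0.83 ± 0.26 and -0.83 ± 0.27 in CD11c- IM, none past the test. In CD11c+ IM the 4 with the smallest p were Ndrg1 (-0.62 ± 0.33), Ldha (-0.37 ± 0.25), Arnt (0.31 ± 0.19) and Pfkfb4 (0.55 ± 0.34), none past the test, and with a block for the pair they were at -0.28, -0.24, 0.23 and 0.07. Same-numbered knockout and WT libraries of these chimeras had deviations with a positive r, which is weak ground for pairs with 2 WT libraries a subset. Their differences were also taken pair by pair. The median over the 34 members was -0.14 for pair 1 and 0.01 for pair 2 of CD11c+ IM, and -0.42 for pair 1 and -0.08 for pair 2 of CD11c- IM. Alveolar macrophage markers had a positive difference in 15 of 16 and melanoma markers in 12 of 13 over both subsets, and their part in these values was not tested.

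Between Arg1 CKO and WT libraries no member was called over both subsets (0.0372% of all genes), in CD11c+ IM (0.0447%) or in CD11c- IM (0.00744%) by edgeR. Arg1 RNA was lower but still present in the Arg1 CKO libraries, at 483 and 567 CPM in CD11c+ IM and 1710 to 2790 CPM in CD11c- IM. Before adjustment, p was under 0.05 for 2 members and 519 genes over both subsets, for 2 members and 779 genes of CD11c+ IM and for 1 member and 193 genes of CD11c- IM. The effect did not differ between the subsets for any member (0% of all genes, 0 members by DESeq2 and limma voom, with 0 members and 519 genes at an unadjusted p under 0.05). The members' median log2 difference was -0.19 over both subsets with 27 negative, -0.29 in CD11c+ IM and -0.09 in CD11c- IM with 28 negative each. Over all genes the median was -0.03 with 54.4% negative over both subsets, -0.03 with 52.3% in CD11c+ IM and 0.00 with 50.5% in CD11c- IM. Without CD11c+ WT library 1 of the ARG1 chimeras it was -0.05 over both subsets and -0.07 in CD11c+ IM. Arnt had the smallest p: 23.5 and 38.5 CPM in Arg1 CKO against 42.3, 42.1 and 43.1 CPM in WT CD11c+ libraries, and 34.4, 33.2 and 38.0 CPM in Arg1 CKO against 49.3, 54.5 and 59.97 CPM in WT CD11c- libraries. Each Arg1 CKO library was thus below each WT library of its subset, by -0.55 ± 0.13 on the log2 scale over both subsets (edgeR adjusted p = 0.439), and DESeq2 called Arnt beside 25 genes of all (-0.53, adjusted p = 0.0269). Arnt was picked by its p in these same libraries, and the share of all genes without overlap is not given here. The order of the libraries thus adds no support. With a block for the pair, which in these chimeras covers CD11c- IM alone, Arnt differed by -0.55 over both subsets (edgeR adjusted p = 0.544). DESeq2 called 0 members within either subset and limma voom 0 in all 3 comparisons. Kdm3a differed by -0.56 ± 0.24, Slc16a3 by -0.47 ± 0.25 and Slc2a1 by -0.35 ± 0.22, none past the test. In CD11c- IM the HIF target score was 6.40 in Arg1 CKO against 6.47 in WT for number 1, 6.29 against 6.41 for number 2 and 6.05 against 6.23 for number 3. Alveolar macrophage markers summed to 2348 and 1714 CPM in Arg1 CKO against 603, 916 and 1219 CPM in WT CD11c+ libraries, which did not overlap, and to 583, 388 and 476 CPM in Arg1 CKO against 578, 343 and 433 CPM in WT CD11c- libraries. Melanoma markers summed to 139.5 and 145 CPM in Arg1 CKO against 67.9, 99.8 and 102 CPM in WT CD11c+ libraries, and to 161, 373 and 297 CPM in Arg1 CKO against 107, 135 and 182 CPM in WT CD11c- libraries. The part of these markers was not tested.

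The effects of the labelled Il9r KO and of Arg1 CKO were also compared with each other, in a test added after the data had been seen. No member differed, where 0.0149% of all genes did (edgeR, with 2 members and 398 genes at an unadjusted p under 0.05). Of the 34 differences 25 were negative, with a median of -0.07 against 0.044 over all genes.

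**Figure D5:**
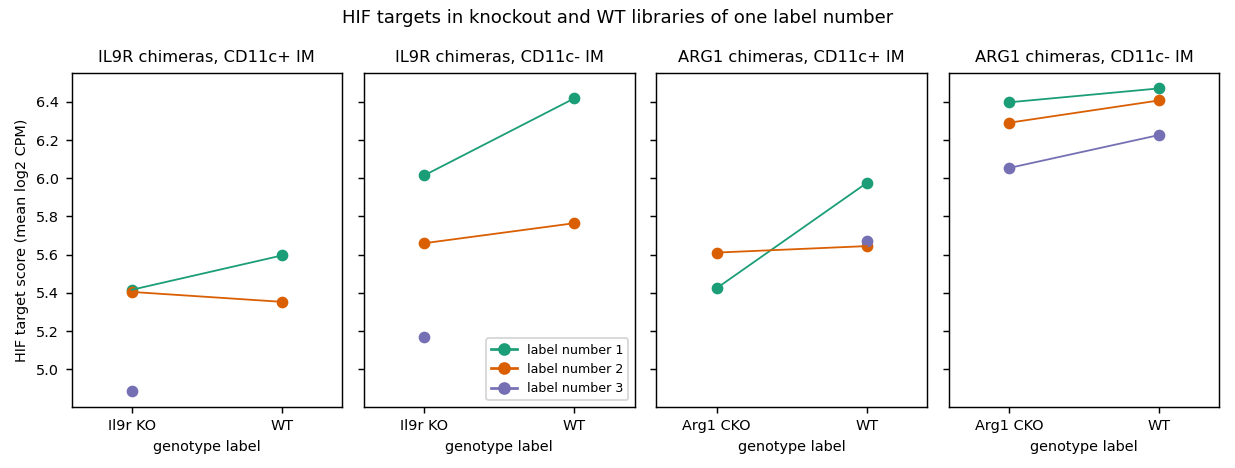
HIF target score (mean log2 CPM of 17 genes) of each knockout library, on the left of a panel, and each WT library, on the right, with lines between libraries of the same label number, in 4 panels by chimera and subset. The lines slope up to WT in all 3 pairs of ARG1 CD11c- IM (6.40 to 6.05 in Arg1 CKO against 6.47 to 6.23 in WT), while 1 of the 2 lines of IL9R CD11c+ IM slopes down to WT.

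Other genes of the same pathways came from wider lists. Of 43 further hypoxia response genes tested, 17 were higher and 4 lower in tumor CD11c+ IM and 18 higher and 5 lower in tumor CD11c- IM than in naive macrophages, WT libraries, where 13.7% and 9.54% of all genes were higher and lower in CD11c+ IM and 13% and 10.2% in CD11c- IM. Hilpda, a lipid droplet protein, rose by 3.47 ± 0.38 in CD11c+ and 4.01 ± 0.39 in CD11c- IM on the log2 scale, and Fam162a by 1.87 ± 0.26 in CD11c+ and 2.11 ± 0.27 in CD11c- IM (edgeR adjusted p from 8.72e-06 to 0.000404). Hmox1, heme oxygenase, rose by 3.01 ± 0.50 in CD11c+ and 3.92 ± 0.53 in CD11c- IM, and Nos2, the inducible nitric oxide synthase, by 2.93 ± 0.51 in CD11c+ and 4.44 ± 0.55 in CD11c- IM. Wsb1 fell by 1.33 ± 0.22 in CD11c+ and 0.99 ± 0.22 in CD11c- IM. Of 34 further glycolysis genes, 8 were higher and 2 lower in CD11c+ IM and 5 higher and 4 lower in CD11c- IM, shares near those of all genes in CD11c- IM, with Hk3 higher by 0.76 ± 0.24 in CD11c+ and 1.09 ± 0.25 in CD11c- IM. In glycogen metabolism Gys1, glycogen synthase, rose by 2.61 ± 0.33 in CD11c+ and 3.45 ± 0.35 in CD11c- IM, and of the 11 genes of that list 1 was higher in CD11c+ IM and 3 in CD11c- IM, too few to set apart from the share of all genes.

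Between the subsets members of these lists differed in both directions. Of 44 further hypoxia response genes, 3 were higher and 9 lower in CD11c+ than in CD11c- WT libraries, and 4 higher and 5 lower in knockout libraries, where 5.44% of all genes were higher and 6.1% lower in WT and 5.91% and 6.36% in knockout libraries. Bhlhe41, a transcription repressor that is also an alveolar macrophage marker, was higher by 2.10 ± 0.31 in WT and 2.20 ± 0.28 in knockout libraries, and Epas1, another HIF alpha subunit, by 1.71 ± 0.43 in WT and 2.20 ± 0.40 in knockout libraries (edgeR adjusted p from 3.66e-05 to 0.0135). In WT libraries Epas1 thus changed in the opposite direction to Hif1a. Plod1, a collagen lysyl hydroxylase, fell by 0.70 ± 0.16 in WT and 0.66 ± 0.15 in knockout libraries. Of 10 pentose phosphate genes, 3 were higher in CD11c+ WT and 2 in CD11c+ knockout libraries. Among them, Taldo1, transaldolase, was higher by 0.68 ± 0.12 in WT and 0.62 ± 0.11 in knockout libraries, and Tkt, transketolase, by 0.50 ± 0.10 in WT and 0.36 ± 0.10 in knockout libraries. Mpc1, a subunit of the mitochondrial pyruvate carrier, was higher by 0.98 ± 0.13 in WT and 0.86 ± 0.12 in knockout libraries. Gys1 fell by 0.88 ± 0.21 in WT and 0.65 ± 0.20 in knockout libraries, while Gyg, glycogenin, was higher by 1.13 ± 0.15 in WT and 1.07 ± 0.14 in knockout libraries. 

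Across the 21 tumor libraries most members followed each other. Slc2a1 had a Pearson r of 0.97 with the score of the enzymes and 0.98 with the score of the HIF targets, Gpi1 of 0.97 and 0.95, Egln1 of 0.90 and 0.97, Bnip3 of 0.88 and 0.95 and Slc16a3 of 0.91 and 0.94, each gene left out of the score it was set against. Other members did not share this pattern: Pfkp had 0.01 and 0.06, Pfkfb4 -0.10 and -0.15, Kdm3a 0.10 and 0.18, and Bnip3l -0.53 and -0.62. Hif1a RNA had 0.15 with the enzymes and 0.40 with the HIF targets, and Arnt 0.12 and 0.28. These values describe 21 libraries that fall into subsets and kinds of chimera and share depth, scaling and those group differences. Egln3 spread most, with an SD of 1.24 log2 units over the tumor libraries.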

How the data were processed

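The deposited table holds raw read counts per gene for 25 libraries, made by the authors with FastQC 0.11.5, STAR 2.7.10a and featureCounts of Subread 2.0.3 on mm10, per the submitters' processing notes; strand settings are not given in the sources used here. Libraries came from a low-input amplification kit without molecular identifiers, per the labels' protocols, so counting intervals cover counting error alone. Identifier and symbol columns matched in 4 of the 33 members checked and in 271 of all 12853 identifiers checked (2.11%). Symbols were used, because marker genes such as Itgax followed the sorted subsets by symbol. Every result here rests on that choice. The 34 genes, the wider lists and the tests were chosen with earlier results of these data known.

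Counts were tested in R 4.3.3 with edgeR 4.0.16 (TMM scaling, filterByExpr, robust quasi-likelihood F test, two-sided, Benjamini-Hochberg adjusted p under 0.05 over all genes tested). One fit held the 21 tumor libraries with a term per group (13434 genes, 13 residual degrees of freedom), another the 12 WT libraries (13170 genes) and another the 13 knockout libraries (13356 genes), the last 2 with terms for population and kind of chimera. Alternatives used DESeq2 1.42.0, limma 3.58.1, other scalings and filters, replicate blocks and each library left out. CPM used TMM factors over 25 libraries; log2 CPM had a prior count of 2, and lengths were exon unions of GENCODE. Scores and correlations carry no test. In each comparison full values went to the called members with the largest change, up to 8, or to the 4 with the smallest p. Fits were also run on simulated data with the same spread for every gene and no pairing. That run does not show error rates in these data. Over 8111 genes, same-numbered knockout and WT libraries had correlated deviations (r = 0.361 and 0.464 in CD11c- and 0.253 and 0.365 in CD11c+ IM of the IL9R chimeras, 0.38, 0.213 and 0.288 in CD11c- IM of the ARG1 chimeras) and were taken as pairs. In ARG1 CD11c+ IM (-0.073 and -0.172) they were not. In the IL9R chimeras a positive r is weak ground for pairs. With 2 WT libraries a subset their deviations mirror each other, so each knockout library has a positive r with 1 of them. Knockout library 3, which has no partner, had 0.177 with WT library 1 in CD11c- and 0.012 with WT library 2 in CD11c+ IM. In ARG1 CD11c- IM libraries of different numbers had r from -0.322 to 0.046. The pairs entered the block for the pair and the pairwise differences alone, and the main tests of knockout against WT did not use them.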

Additional observations from a re-analysis of the deposited data

How the results depend on the processing

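Of 246 counts of called members under other settings, 226 stayed within 1.5 times the reported count, and these include counts of 0 that stayed 0. All but 1 of 1380 single values kept their direction, while 50 lost their call and 5 gained a call. Of 300 score differences, 12 moved by at least the within-group SD. DESeq2 called 17 members in CD11c+ over CD11c- WT libraries and 23 in tumor CD11c+ over naive knockout libraries, and 1 member for labelled Il9r KO over both subsets, for labelled Il9r KO in CD11c- IM and for Arg1 CKO over both subsets. The replicate block by label number called 20 in CD11c+ over CD11c- WT, and 21 with the ARG1 CD11c+ knockout libraries taken as numbers 2 and 3, whose pairing was r = 0.172 and 0.065. The block by pair could not be fitted between subsets, and the blocks changed no other count by over 1.5 times; for labelled Il9r KO over both subsets the median under it was -0.157. Leaving out each library gave 6 to 16 calls in CD11c+ over CD11c- WT, 5 to 17 in CD11c+ over CD11c- knockout, 0 to 3 for labelled Il9r KO in CD11c- IM, 12 to 29 in tumor CD11c- and 0 to 23 in tumor CD11c+ over naive knockout, and 24 in the last without both libraries numbered 3. Counts over all genes in the fits with a library left out are not given here. Ero1l for labelled Il9r KO in CD11c- IM turned to 0.018 without WT library 1 and was -1.721 without WT library 2. Scaling by library totals alone moved the median of all genes to -0.272 and -0.292 for tumor CD11c- and CD11c+ IM over naive WT and to -0.258 and -0.196 over naive knockout, and the enzyme score difference to 1.517 in tumor CD11c- over naive WT and 0.848 in tumor CD11c+ over naive knockout, and that of HIF targets to 1.58 in tumor CD11c+ over naive WT. Taking the median over members gave enzyme differences of -0.013 for labelled Il9r KO in CD11c+ IM, and of 0.77 and 1.281 for tumor CD11c+ and CD11c- over naive WT and 0.273 and 0.708 over naive knockout; those of HIF targets were 0.95 and 1.55, and 0.677 and 1.261. The cause of these moves was not tested. With 2 naive libraries per genotype, 1 of them without an Ak4 read, the size of changes in genes silent in naive cells is limited by their few reads.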
